A study of Mus musculus with 24 samples.

Results

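The genes described here are the clustered histone genes, mostly replication-dependent genes of the H1, H2A, H2B, H3 and H4 classes that lie in the histone gene clusters of the mouse genome. They were taken by name: an entry of the deposited table counted when its symbol began with Hist1h, Hist2h, Hist3h or Hist4h. The table held 70 such entries, 6 of H1, 20 of H2A, 19 of H2B, 12 of H3 and 13 of H4. Of these, 36 reached 1 FPKM (a count of sequenced fragments scaled to gene length and library depth) in at least 2 of 20 libraries and are described in full: 4 H1, 7 H2A, 10 H2B, 6 H3 and 9 H4 genes. They are 36 of the 13594 genes that passed the same filter and were tested. Of the 36, 32 belong to cluster 1 on chromosome 13, 2 to cluster 2 and 2 to cluster 3. Names alone do not exclude pseudogenes: Hist1h2al among the 36, and Hist1h2aj and Hist3h2bb-ps among the 70 entries, are annotated as such.

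Each nucleosome wraps DNA around a core of H2A, H2B, H3 and H4, and a linker histone of the H1 class binds where the DNA enters and leaves. Most core and linker histone is made in S phase from these clustered genes, whose messages have no introns and end in a conserved stem-loop in place of a poly(A) tail. The stem-loop is bound by Slbp, and the messages are degraded when DNA replication stops. Some clustered genes also give polyadenylated messages, mainly in cells that no longer divide, and such messages survive a poly(A) selection that loses the stem-loop form.

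The libraries came from hepatocellular carcinoma (HCC) tumour tissue of Lap-tTA/Tet-O-MYC mice on the FVB/N strain. In this model the tTA transactivator, driven by the Lap promoter in hepatocytes, switches on a human MYC transgene, doxycycline keeps it off, and here doxycycline was withdrawn at 4 weeks of age so that tumours formed with MYC on. Mice with tumours received a first treatment, a second dose 7 days later, and were killed 4 to 72 h after the second dose. The question put by the design is how tumours respond over time to RMC-6272, which the series title describes as a bi-steric inhibitor selective for mTORC1, and to other treatments.

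All groups shared the transgenes, the strain and the tissue. The vehicle group had 3 libraries at 24 h, from mice given a 5/5/90 mixture of Transcutol, Solutol HS 15 and water, I.P. RMC-6272 was injected weekly at 10 mg/kg, and its libraries number 1 for 12 h, 3 for 24 h, 3 for 48 h and 3 for 72 h. Sorafenib, a kinase inhibitor, was gavaged daily at 30 mg/kg, and its libraries number 3 for 4 h, 2 for 24 h and 2 for 48 h. Outside the tests stand 2 libraries from mice with MYC switched off again by doxycycline at 100 µg/ml in the water and 2 from mice injected weekly with 10 mg/kg of RMC-4627; both were collected at 24 h. Vehicle was collected at 24 h alone, so time after dosing and treatment cannot be told apart in the 48 and 72 h comparisons. The same holds for sorafenib over its 3 times against vehicle. Sorafenib was given by gavage and vehicle I.P., so route and drug cannot be told apart in any sorafenib comparison with vehicle. The labels do not say whether the libraries of a group came from separate mice, and the p-values measure the spread between libraries, which may be technical. Each library also has a description code, whose meaning is not stated. The vehicle codes are Cg2M3, Cg1M4 and Cg1M1, while those of RMC-6272 and sorafenib begin with Cg9 to Cg15. The first part of the code and treatment thus cannot be told apart in any comparison with vehicle.

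The hepatocyte markers Alb and Hnf4a were present in every library. In the 20 vehicle, RMC-6272 and sorafenib columns 98.2% to 98.7% of low values fell within 0.02 of a whole number of reads, which gave depths of 17.6 to 41.7 M (mega) reads with a median of 34.9. In the DOX and RMC-4627 columns 3.57% to 4.26% did, and a list of non-polyadenylated RNAs summed to 3.68 to 9.28 FPKM there against 136 to 2786 FPKM in the 20, so these 4 libraries were made in another way and are given apart. Replicate 3 of RMC-6272 at 72 h stood apart from the other 19: it was the shallowest at 17.6 M reads (the next had 30.2 M reads), and its neutrophil markers summed to 2908 FPKM against 1.80 to 73.6 FPKM in those 19, its erythroid markers to 37467 against 11.4 to 2759, and its non-polyadenylated RNAs to 2786 against 136 to 379. Every result below is given with this library and, where its absence changed a call, without it. Whether the libraries were made with poly(A) selection or ribosomal RNA removal, and whether reads were counted by strand, is not given in the sources used here.

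The ends of the messages are shown first because they decide whether a poly(A) step would keep them. Over the GENCODE M21 transcripts of the 36 genes, 23 genes held the 16-base histone stem-loop, 10 held a poly(A) signal (AATAAA or ATTAAA, sense strand) in the last 50 bases, 8 held both, and in 13 genes an annotated transcript ran over 100 bases past the stem-loop. Some genes counted without either have short annotated models: Hist1h4k has 312 bases, Hist1h2bl and Hist1h2bn 381, and Hist1h2ai and Hist1h2ak 393. Such models may stop before the end of the message, which was not checked. Genes counted below as without a stem-loop or signal may thus have one that is not annotated. Capitals mark the stem-loop with 5 bases on each side in lower case.
Hist1h3g stem-loop: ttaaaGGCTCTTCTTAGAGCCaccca
Hist1h4i stem-loop: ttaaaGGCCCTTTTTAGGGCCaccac
Hist1h4h stem-loop: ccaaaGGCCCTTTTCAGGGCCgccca
Hist1h2ae stem-loop: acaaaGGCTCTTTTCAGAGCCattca
Hist1h1c stem-loop: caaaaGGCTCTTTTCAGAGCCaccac
The annotated Hist1h3g transcript ends 47 bases after its stem-loop with no poly(A) signal. Those of Hist1h4i, Hist1h2ae and Hist1h1c run on for 330, 151 and 840 bases to a poly(A) signal. The last bases of these and of Hist2h2be, in which no stem-loop was found, are shown with the signal in capitals.
Hist1h4i end: ctgtttacATTAAAagtattctatgctaa
Hist1h2ae end: gcttctccAATAAAtgggtcaatttttttc
Hist1h1c end: atgcttctAATAAAaagcgtttagttttca
Hist2h2be end: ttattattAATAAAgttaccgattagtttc
Genes with a signal had a median level, over the 19 libraries other than RMC-6272 72 h replicate 3, of 1.53 FPKM (10 genes, 0.273 to 34.1) against 0.649 FPKM (26 genes, 0.160 to 36.9) in genes without one, and the ranges of both sets overlapped nearly throughout.

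Promoters are shown for the 3 genes on which the 24 h comparison turns: the H3 and H4 genes furthest below vehicle and the abundant H1 gene that was not. The sequences are the 250 bases before each start in RefSeq, build GRCm38.p6, 5′ to 3′ on the gene's strand, and the deposited levels were made on mm9, so these coordinates belong to the reference alone. Capitals mark the motifs named after each.
Hist1h3g (chr13:23535168-23535417, plus strand): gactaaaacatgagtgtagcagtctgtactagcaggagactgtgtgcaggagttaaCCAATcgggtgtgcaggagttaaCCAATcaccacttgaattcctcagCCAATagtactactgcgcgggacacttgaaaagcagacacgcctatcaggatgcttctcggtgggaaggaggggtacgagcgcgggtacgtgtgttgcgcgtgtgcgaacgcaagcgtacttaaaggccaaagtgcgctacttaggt
Hist1h4i (chr13:22041363-22041612, minus strand): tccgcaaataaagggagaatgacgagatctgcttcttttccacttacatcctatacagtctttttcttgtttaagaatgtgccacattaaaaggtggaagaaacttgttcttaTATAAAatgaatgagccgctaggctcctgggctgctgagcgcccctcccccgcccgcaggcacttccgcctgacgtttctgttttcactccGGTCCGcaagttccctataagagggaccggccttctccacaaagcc
Hist1h1c (chr13:23738557-23738806, plus strand): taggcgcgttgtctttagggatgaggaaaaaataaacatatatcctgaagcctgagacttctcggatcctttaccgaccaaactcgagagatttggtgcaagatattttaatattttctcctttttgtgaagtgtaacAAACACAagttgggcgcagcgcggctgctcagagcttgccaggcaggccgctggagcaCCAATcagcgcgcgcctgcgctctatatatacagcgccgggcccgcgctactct
Hist1h3g carries CCAAT 3 times, Hist1h4i carries TATAAA and GGTCCG, and Hist1h1c carries AAACACA, the box known from H1 genes, and CCAAT. Promoters were found for 32 of the 36 genes, and the motifs, searched on both strands, followed class: GGTCCG was in 7 of 9 H4 promoters against 6.72% of all 32851 promoters of this length, AAACACA was in 3 of 4 H1 promoters against 6.25%, and CCAAT was in 4 of 4 H1, 6 of 6 H2A, 8 of 8 H2B, 4 of 5 H3 and 3 of 9 H4 promoters against 33.8%. The octamer ATTTGCAT, a known site of Oct factors in H2B promoters, was in 4 of 6 H2A and 3 of 8 H2B promoters and in none of the 18 of H1, H3 and H4, against 1.60% of all promoters. H2A and H2B genes often lie head to head and share 1 promoter region: 14 such pairs with starts at most 500 bases apart are among the 70 entries, and in 4 of them both genes are among the 36, as in Hist1h2ae and Hist1h2bg, whose starts lie 176 bases apart.

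Most clustered histone genes were detected at low levels, and 4 of them supplied most of the total. Over the 19 libraries without RMC-6272 72 h replicate 3, Hist1h2bc (median 36.9 FPKM), Hist1h1c (34.1), Hist1h4i (15.6) and Hist1h2al (11.2) were the 4 genes at 10 FPKM or more, 7 genes had a median of at least 2 FPKM, and 26 lay under 1 FPKM. These 4 genes together made up 63.1% to 85.7% of the summed FPKM of the 36 in the 19 libraries. For these short genes 1 read was worth 0.00916 to 0.182 FPKM (median 0.0507), so a gene at 1 FPKM rests on few reads, and 11 of the 36 were listed at 0 in at least 1 of the 20 libraries. Near-identical copies limit how far levels of single genes can be read: in 11 of the 36, over 50% of the 100-base windows of their transcripts occur in another gene, so reads could be split or lost in counting. The heat map of all 36 genes shows the 4 abundant genes as bright rows in nearly every library and 1 bright column, replicate 3 of RMC-6272 at 72 h.

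**Figure D1:**
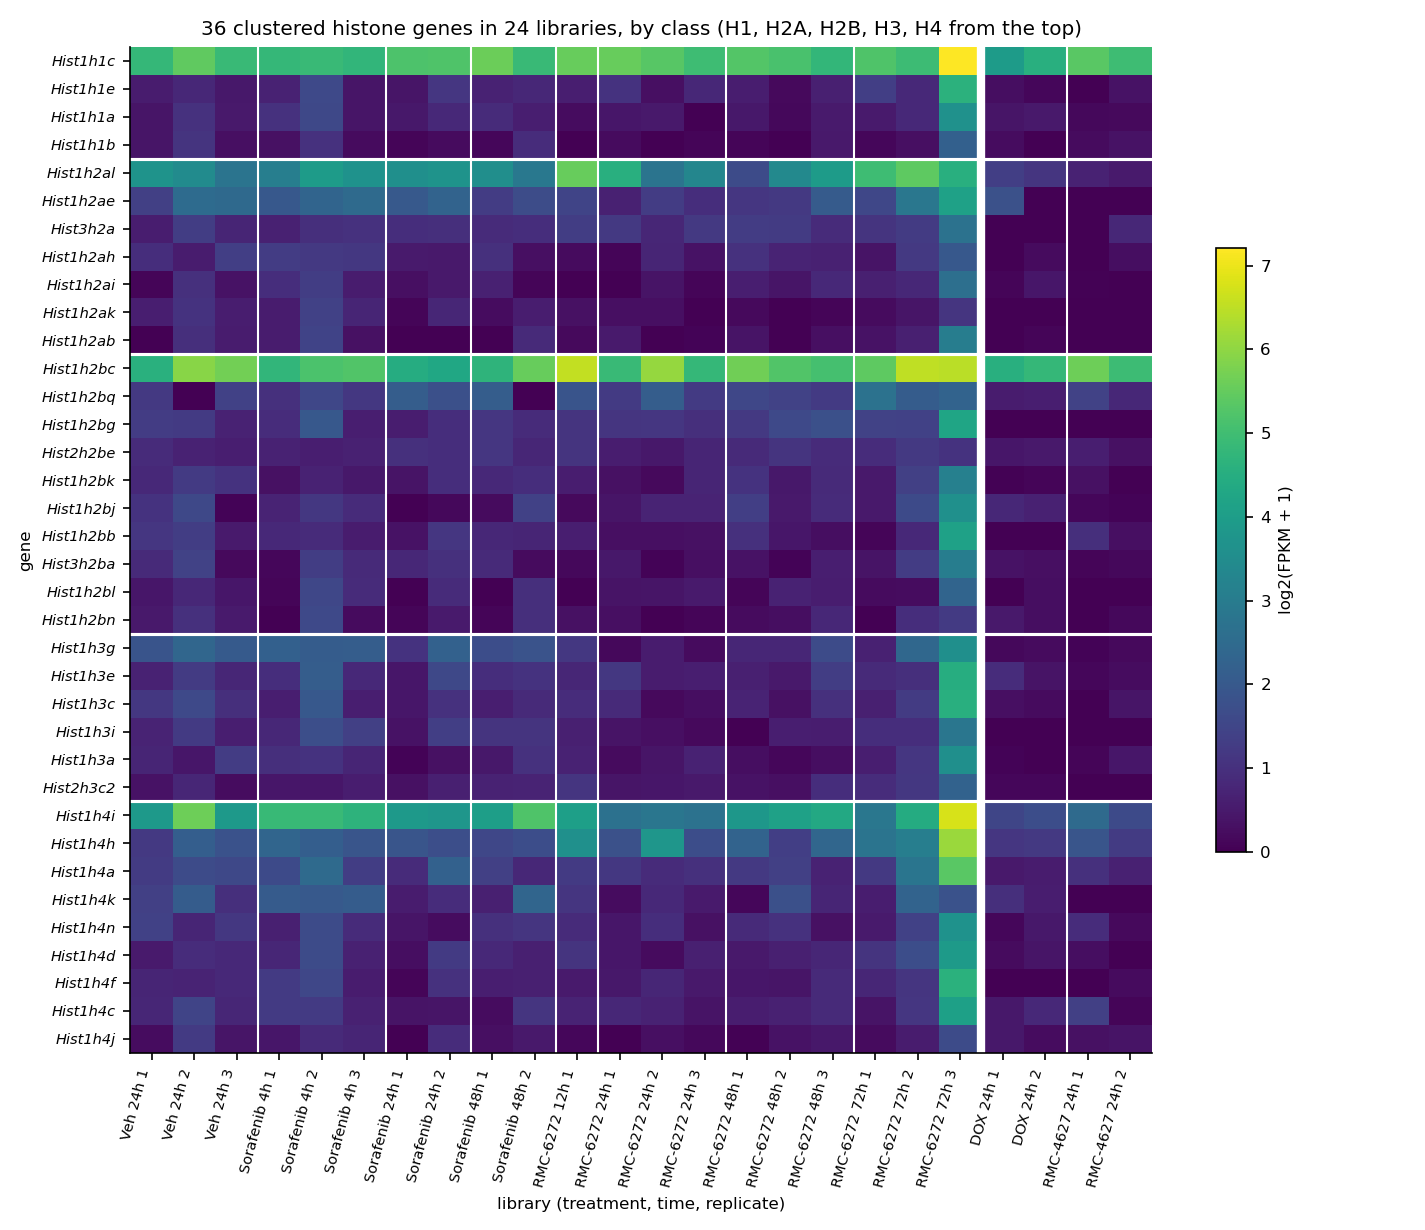
Level of each of the 36 clustered histone genes (rows, ordered by class) in each of the 24 libraries (columns), as log2(FPKM + 1) on the colour scale. Rows of Hist1h1c, Hist1h2al, Hist1h2bc and Hist1h4i are bright in most of the first 20 columns, the column of RMC-6272 72 h replicate 3 is bright across classes, and the 4 DOX and RMC-4627 columns stand to the right of the wide gap because their values were made in another way.

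The H1 class was dominated by Hist1h1c (ENSMUSG00000036181), which encodes H1.2 and is one of the H1 genes known to be expressed outside S phase too. In vehicle it lay at 26.9, 43.1 and 28.7 FPKM. Hist1h1e, which encodes H1.4, lay at 0.450, 0.750 and 0.381 FPKM in vehicle, and its annotated exons share 25.7% of their bases with Hist1h2be on the same strand, so its reads are uncertain. In the H2A class Hist1h2al (ENSMUSG00000091383), annotated as a processed pseudogene, was highest, at 12.1, 10.1 and 5.78 FPKM in vehicle. It shares 109 exonic bases with a miRNA model on the opposite strand, and with strand not stated the reads of both cannot be told apart. Hist1h2ae followed at 1.57, 4.71 and 4.49 FPKM, and shares 138 exonic bases with another miRNA model on the opposite strand. Hist3h2a of cluster 3, whose exons share 33.0% of their bases with Trim17, lay at 0.478, 1.47 and 0.685 FPKM.

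In the H2B class Hist1h2bc (ENSMUSG00000018102) lay at 23.0, 59.5 and 50.3 FPKM in vehicle, Hist1h2bg at 1.45, 1.35 and 0.617, and Hist2h2be of cluster 2, a gene known for a polyadenylated message in differentiated cells, at 0.843, 0.614 and 0.520. The highest H3 gene, Hist1h3g (ENSMUSG00000099517), lay at 2.63, 4.25 and 3.08 FPKM, and the next, Hist1h3e, at 0.598, 1.39 and 0.716. The H4 class was led by Hist1h4i (ENSMUSG00000060639) at 14.002, 47.7 and 13.9 FPKM and Hist1h4h (ENSMUSG00000060981) at 1.29, 3.49 and 2.55. Vehicle replicate 2 was the highest of the 3 vehicle libraries in Hist1h1c, Hist1h2bc, Hist1h3g, Hist1h4i and Hist1h4h, and the summed FPKM of the 36 was 103, 207 and 129 in the vehicle libraries, a mean of 146 ± 54.4 (SD, n = 3). This spread between vehicle libraries limits every comparison with them.

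The 24 h RMC-6272 libraries were set against the vehicle libraries, which were collected at the same time. Of the 36 genes, 1 fell and none rose (limma, adjusted p under 0.05 after Benjamini-Hochberg adjustment over the 13594 genes, used for every call here). Across all genes tested 35.2% were called, 20.3% lower and 14.8% higher. At an unadjusted p under 0.05 there were 3, against 6316 of all 13594 genes. The difference in mean log2(FPKM + 1), the scale of all differences given here, which understates changes of genes near 1 FPKM, was below 0 in 29 genes and above 0 in 7, with a median of -0.35 against -0.01 over all genes tested. In 12 genes (Hist1h1b, Hist1h2ae, Hist1h2ak, Hist1h2bb, Hist1h2bk, Hist1h2bn, Hist1h3c, Hist1h3g, Hist1h3i, Hist1h4a, Hist1h4i and Hist1h4k) all RMC-6272 libraries lay under all vehicle libraries, and in no gene did they lie above, against 26.8% and 23.3% of all genes tested (50.1% without overlap in either direction).

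The gene that fell was Hist1h3g. At 24 h of RMC-6272 it lay at 0.112, 0.457 and 0.152 FPKM (0.240 ± 0.189, SD, n = 3), which are 2, 8 and 3 reads, against 3.32 ± 0.835 FPKM in vehicle, from 53, 70 and 60 reads. All 3 RMC-6272 libraries lay under the lowest vehicle library by a wide margin. The difference was -1.79 (SE 0.52, adjusted p = 0.0154). Without vehicle replicate 2 the adjusted p was 0.0546, and with a pseudocount of 5 it was 0.0591, so the call was lost under both.

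Hist1h4i was the other gene with a large difference. It lay at 5.40, 6.16 and 5.57 FPKM at 24 h of RMC-6272 (5.71 ± 0.401, SD, n = 3), from 132, 148 and 151 reads, against 25.2 ± 19.5 FPKM in vehicle. The 3 treated libraries were close to each other and under every vehicle library, while the vehicle mean rests on replicate 2 at 47.7 FPKM. The difference of -1.72 (SE 0.69) did not pass at an adjusted p of 0.0658. Hist1h2ae, at 0.591, 1.42 and 0.914 FPKM against 3.59 ± 1.75 in vehicle, differed by -1.15 (SE 0.49, adjusted p = 0.0804), again with no overlap between the groups, since the lowest vehicle library was at 1.57 FPKM.

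When RMC-6272 72 h replicate 3 was left out of the fit, which removes its large deviation from the shared estimate of spread and leaves these 6 libraries as they were, 4 genes fell and none rose, against 43.5% of all genes called (23.8% lower). They were Hist1h3g (adjusted p = 0.00276), Hist1h4i (adjusted p = 0.00780), Hist1h2ae (adjusted p = 0.0229) and Hist1h2bk (-0.63, adjusted p = 0.0491). Hist1h2bk lay at 0.250, 0.127 and 0.676 FPKM against 0.774, 1.35 and 1.09 in vehicle, with no overlap, and 70.8% of its 100-base windows occur in other genes. At an unadjusted p under 0.05 there were 8, against 7067 of all genes.

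The abundant H1 and H2B genes stood otherwise. Hist1h1c lay at 45.1, 39.4 and 30.3 FPKM at 24 h of RMC-6272, overlapping vehicle, with a difference of 0.22 and a 95% interval from -0.69 to 1.14 (adjusted p = 0.711). Hist1h2bc lay at 28.7, 66.7 and 27.1 FPKM, also overlapping, with a difference of -0.13 and an interval from -1.0 to 0.73 (adjusted p = 0.825). Neither interval reaches -1.72, the estimated difference of Hist1h4i, and neither shows that levels were equal. That estimate has an error of its own, and genes were not tested against each other.

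By class, the summed FPKM of the H3 genes was 2.94, 1.99 and 2.03 at 24 h of RMC-6272 (2.32 ± 0.535, SD, n = 3) against 6.09, 10.1 and 6.89 in vehicle (7.69 ± 2.12), with no overlap. That of the H4 genes was 15.1 ± 7.08 against 35.7 ± 22.8 FPKM, and replicate 2 of RMC-6272 at 23.3, carried by Hist1h4h at 12.9 FPKM, overlapped vehicle replicates 1 and 3 at 21.9 and 23.2. The H1, H2A and H2B sums overlapped too, at 39.3 ± 7.83, 15.2 ± 8.57 and 46.2 ± 23.2 FPKM against 34.6 ± 9.91, 16.4 ± 3.05 and 52.1 ± 19.5. The class medians of the difference were -0.11 for H1, -0.32 for H2A, -0.21 for H2B, -0.48 for H3, with all 6 genes below 0, and -0.47 for H4, with 8 of 9 below 0. Outside the 5 genes of highest mean level (Hist1h2bc, Hist1h1c, Hist1h4i, Hist1h2al and Hist1h4h), the other 31 genes summed to 15.2, 16.6 and 13.7 FPKM at 24 h of RMC-6272 and to 25.5, 43.6 and 27.9 FPKM in vehicle, again with no overlap.

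**Figure D2:**
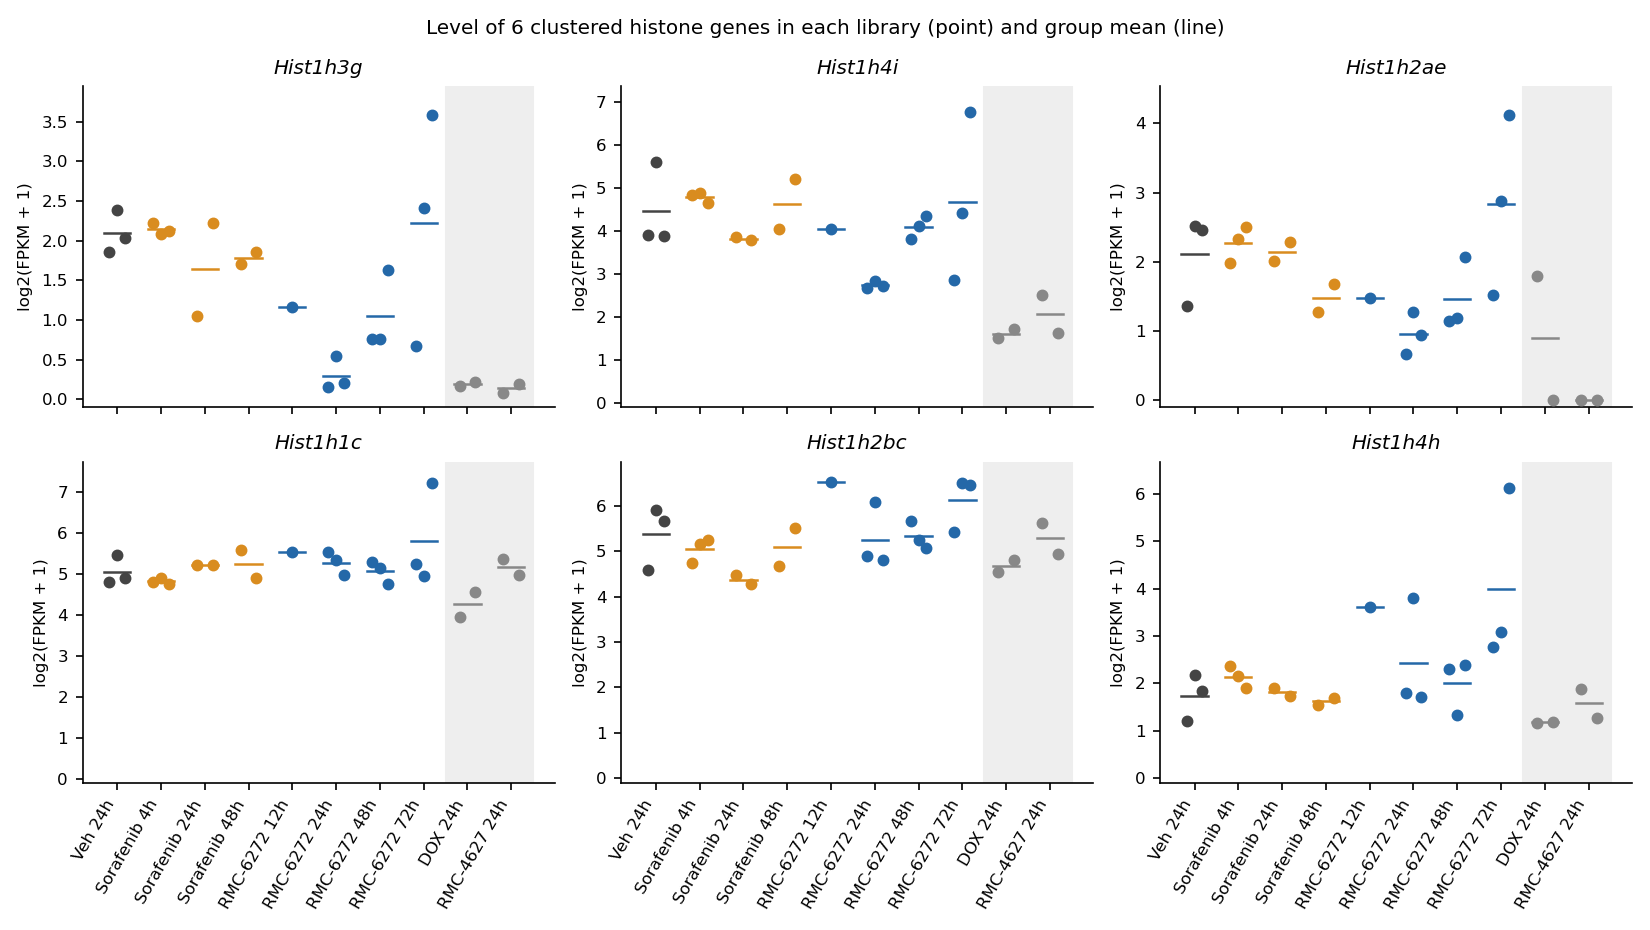
Level of 6 clustered histone genes in each library as log2(FPKM + 1) (points) with the group mean (line), for vehicle (black), sorafenib (orange), RMC-6272 (blue) and, shaded because their values were made in another way, DOX and RMC-4627 (grey). The 24 h RMC-6272 points of Hist1h3g, Hist1h4i and Hist1h2ae lie under all vehicle points, those of Hist1h1c, Hist1h2bc and Hist1h4h overlap them, and replicate 3 at 72 h is the highest point for all but Hist1h2bc.

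Genes that act on or beside the clustered histone genes were taken as lists. In the list of 49 S-phase genes at 24 h of RMC-6272, 46 fell and none rose, with a median difference of -1.25, and in the list of 36 G2/M genes 35 fell and none rose, with a median of -1.64. Pcna, the sliding clamp of DNA polymerase, differed by -1.78 (SE 0.23, adjusted p = 0.000639), Mcm5 and Mcm6, subunits of the replicative helicase, by -1.50 and -1.57, and Mki67, a marker of dividing cells, by -1.42 (adjusted p = 0.00156). The summed FPKM of the S-phase list was 436, 465 and 614 at 24 h of RMC-6272 against 1216, 1374 and 1324 in vehicle, a separation larger than that of the summed clustered histone genes, which were at 119, 148 and 87.7 FPKM against 103, 207 and 129. The histone sum rests mostly on 4 abundant genes, and outside the genes of highest mean level it did not overlap vehicle, as given above.

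Of 28 genes for transcription and 3′ processing of histone messages, 20 fell and none rose, with a median of -0.71. Slbp, which binds the stem-loop, differed by -1.05 (adjusted p = 0.00149), and the exonuclease Eri1, which trims the stem-loop end, by -0.98 (adjusted p = 0.000792). Ncbp1, a cap-binding protein, and Cpsf2, part of the cleavage complex, differed by -1.03 and -1.04. Npat, the coactivator that brings the clusters into histone locus bodies, did not pass, at -0.23 (adjusted p = 0.368). Of 25 histone chaperones 18 fell, among them Anp32e (-1.53), which removes H2A.Z, Asf1b (-2.24), which carries H3 and H4, and Chaf1a (-1.17) of the replication-coupled assembly factor.

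Histone genes outside the clusters numbered 12, of which 4 fell and 1 rose, with a median of -0.30, near the shares of 20.3% and 14.8% over all genes. H2afz, which encodes H2A.Z, differed by -1.95 (adjusted p = 0.000639), H2afx, the variant phosphorylated at DNA breaks, by -1.80 (adjusted p = 0.00165), Cenpa, the centromeric H3, by -1.15 (adjusted p = 0.00105) and H2afy, which encodes macroH2A, by -0.65 (adjusted p = 0.0144). H1f0, the linker histone of cells that have left the cycle, rose by 0.61 (adjusted p = 0.0285), and H3f3b, 1 of the H3.3 genes, did not pass at -0.25 (adjusted p = 0.443). Among 14 non-polyadenylated RNAs 1 fell, Snord49a (-1.11), with a median of 0.10.

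Markers of cell types also differed between these groups. Hepatocyte markers summed to 17583 to 32351 FPKM at 24 h of RMC-6272 against 5463 to 8245 in vehicle, and 8 of 11 tested rose. Macrophage markers summed to 1383 to 1578 against 552 to 766 FPKM, with 2 of 11 higher, neutrophil markers to 12.8 to 47.7 against 2.36 to 3.97 FPKM, with none of 8 passing (6 of 8 rose without RMC-6272 72 h replicate 3), and stellate cell markers to 88.8 to 153 against 53.6 to 101 FPKM, with 2 of 8 higher. No defining marker of these lists was at 0. The part of these differences in the levels of the histone genes was not tested, and in bulk tissue fewer cells of a type and less RNA per cell cannot be told apart.

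At 48 h of RMC-6272 none of the 36 genes passed against vehicle (limma; 1 at an unadjusted p under 0.05, Hist1h2ak, against 2981 of all genes), where 0.11% of all genes did (0.0441% higher and 0.0662% lower). Differences were below 0 in 27 of the 36, with a median of -0.26 against -0.03 over all genes. Hist1h3g lay at 0.701, 0.699 and 2.11 FPKM, still under every vehicle library, with a difference of -1.04 (SE 0.52, adjusted p = 0.254). It was 1 of 4 genes whose groups did not overlap on the low side, beside Hist1h2ak, Hist1h3a and Hist1h3i, against 17.6% of all genes. Hist1h4i lay at 13.2, 16.4 and 19.6 FPKM, which overlapped vehicle. Without RMC-6272 72 h replicate 3 in the fit, still none passed (3 at an unadjusted p under 0.05) and 2.51% of all genes did.

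Compared directly, 48 h against 24 h of RMC-6272, none of the 36 passed (limma; 1 at an unadjusted p under 0.05, Hist2h2be, against 2510 of all genes), with 0.5% of all genes called (0.405% higher and 0.0956% lower). The level at 48 h was the higher mean in 28 of 36, with a median of 0.09, and in 5 genes all 48 h libraries lay above all 24 h libraries, against 13.6% of all genes, while in none did they lie below (8.96% of all genes). Hist1h4i was among those without overlap, with a difference of 1.36 (SE 0.69, adjusted p = 0.316). In the S-phase list 10 of 49 rose between these times and in the G2/M list 7 of 36 (22 and 22 without RMC-6272 72 h replicate 3 in the fit, where none of the histone genes passed and 2 had an unadjusted p under 0.05). H2afz rose by 1.497 (adjusted p = 0.0445), Pcna did not pass at 1.06 (adjusted p = 0.0544), Mki67 not at 1.06 (adjusted p = 0.0697) and Slbp not at 0.56 (adjusted p = 0.134).

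Other genes named by level or cluster did not pass against vehicle at 24 or 48 h. Hist1h1e lay at 1.08, 0.235 and 0.736 FPKM at 24 h of RMC-6272 and at 0.488, 0.137 and 0.539 at 48 h, around its vehicle levels. Hist1h2bg lay at 1.15, 1.22 and 0.954 FPKM at 24 h and at 1.29, 2.01 and 2.40 at 48 h, and Hist1h3e at 1.24, 0.471 and 0.513 and then 0.547, 0.411 and 1.49. Hist2h2be lay at 0.488, 0.370 and 0.675 FPKM at 24 h and at 0.807, 1.11 and 0.864 at 48 h, Hist3h2a at 1.29, 0.719 and 1.27 and then 1.42, 1.37 and 0.860. Between 24 and 48 h Hist1h2bg and Hist2h2be did not overlap, with the 48 h libraries higher. The processed pseudogene Hist1h2al varied between replicates, at 22.4, 5.89 and 8.85 FPKM at 24 h and at 2.11, 9.59 and 14.6 at 48 h. None of these 6 genes passed against vehicle at either time, with adjusted p-values of 0.373 to 0.998 in limma's test. The median level of the 36 was 0.410 ± 0.0327 FPKM (SD, n = 3) at 24 h against 0.947 ± 0.344 in vehicle, and 0.591, 0.536 and 0.796 FPKM in the 48 h libraries.

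At 72 h of RMC-6272 against vehicle 5 of the 36 genes rose and none fell, where 26.6% of all genes were called, 10.7% higher and 15.8% lower. Differences were above 0 in 35 of 36, with a median of 0.79 against 0.00, and 11 genes had an unadjusted p under 0.05, against 5774 of all 13594. Most of this rests on replicate 3. Without that library 1 gene rose, where 17.3% of all genes were called and 6.91% were higher, the median was 0.03, and 21 genes were above 0 and 15 below.

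Hist1h2al rose in the fits with and without replicate 3, though not under every alternative. It lay at 30.6, 42.0 and 22.6 FPKM at 72 h (31.7 ± 9.78, SD, n = 3), all above the highest vehicle library at 12.1 FPKM. Replicate 3 was the lowest of the 3 here. The difference was 1.68 (SE 0.53, adjusted p = 0.0329) with replicate 3 and 1.89 (SE 0.60, adjusted p = 0.0455) without it. Leaving out any other library of the 2 groups ended the call, with adjusted p-values of 0.0542 to 0.110, as did fitting the compared groups alone (adjusted p = 0.141) or no filter on low values (adjusted p = 0.0809).

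Hist2h3c2, an H3 gene of cluster 2, lay at 0.893, 1.23 and 3.84 FPKM against 0.284, 0.725 and 0.187 in vehicle. All 3 treated libraries lay above vehicle, and the difference was 0.99 (SE 0.28, adjusted p = 0.0223) with replicate 3 and 0.58 (adjusted p = 0.0626) without it. In Hist2h3c2 61.6% of the 100-base windows occur in other genes. Hist1h2bq lay at 5.55, 3.25 and 3.91 FPKM against 1.28, 0.0160 and 1.62, with no overlap, a difference of 1.498 (SE 0.45, adjusted p = 0.0272) and 1.53 without replicate 3 (adjusted p = 0.0541). The size was thus about the same without that library, but 94.8% of its 100-base windows occur in other genes, and its level, 0.0160 FPKM in vehicle replicate 2 and 0 in sorafenib 48 h replicate 2, is uncertain.

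Hist1h4h lay at 5.82, 7.48 and 68.4 FPKM at 72 h against 1.29, 3.49 and 2.55 in vehicle, all above vehicle but with replicate 3 far out. Its difference was 2.26 (SE 0.71, adjusted p = 0.0312), and 1.197 without replicate 3 (adjusted p = 0.102). Hist1h4d, which lay at 1.10, 2.27 and 14.3 FPKM against 0.439, 0.876 and 0.789, went from 1.48 (SE 0.52, adjusted p = 0.0473) to 0.63 (adjusted p = 0.155). In 8 genes all 72 h libraries lay above vehicle both with replicate 3 (13.3% of all genes) and without it (20.8%): Hist1h1e, Hist1h2al, Hist1h2bg, Hist1h2bq, Hist1h4d, Hist1h4h, Hist2h2be and Hist2h3c2. Without it 3 genes lay wholly below vehicle, Hist1h1b, Hist1h2ak and Hist1h2bl, where 23.3% of all genes did.

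The genes that stood lowest at 24 h had no common level at 72 h. Hist1h3g lay at 0.593, 4.32 and 11.03 FPKM and Hist1h4i at 6.27, 20.54 and 108 FPKM, so replicate 1 was near the 24 h levels while replicates 2 and 3 were within or above the vehicle range. Hist1h2ae, at 1.87, 6.32 and 16.4 FPKM, was ordered the same way. The summed S-phase list had replicates 1, 2 and 3 at 620, 1037 and 713 FPKM, all under vehicle, and 31 of its 49 genes fell against vehicle (21 without replicate 3), as did 26 of 36 G2/M genes (22 without it). Of the genes named at 24 h, Pcna differed at 72 h by -0.90 (adjusted p = 0.0154), Slbp by -0.58 (adjusted p = 0.0349) and H1f0 by 0.67 (adjusted p = 0.0258), and H2afz (-0.67, adjusted p = 0.0581), Mki67 (-0.45, adjusted p = 0.197), Npat (-0.38, adjusted p = 0.154) and H3f3b (0.43, adjusted p = 0.182) did not pass. Against 48 h none of the 36 histone genes passed at 72 h (limma; 14 at an unadjusted p under 0.05, against 2839 of all genes, and 4 without replicate 3, against 2159), with 0% of all genes called, a median of 1.06, and 0.25 without replicate 3.

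**Figure D3:**
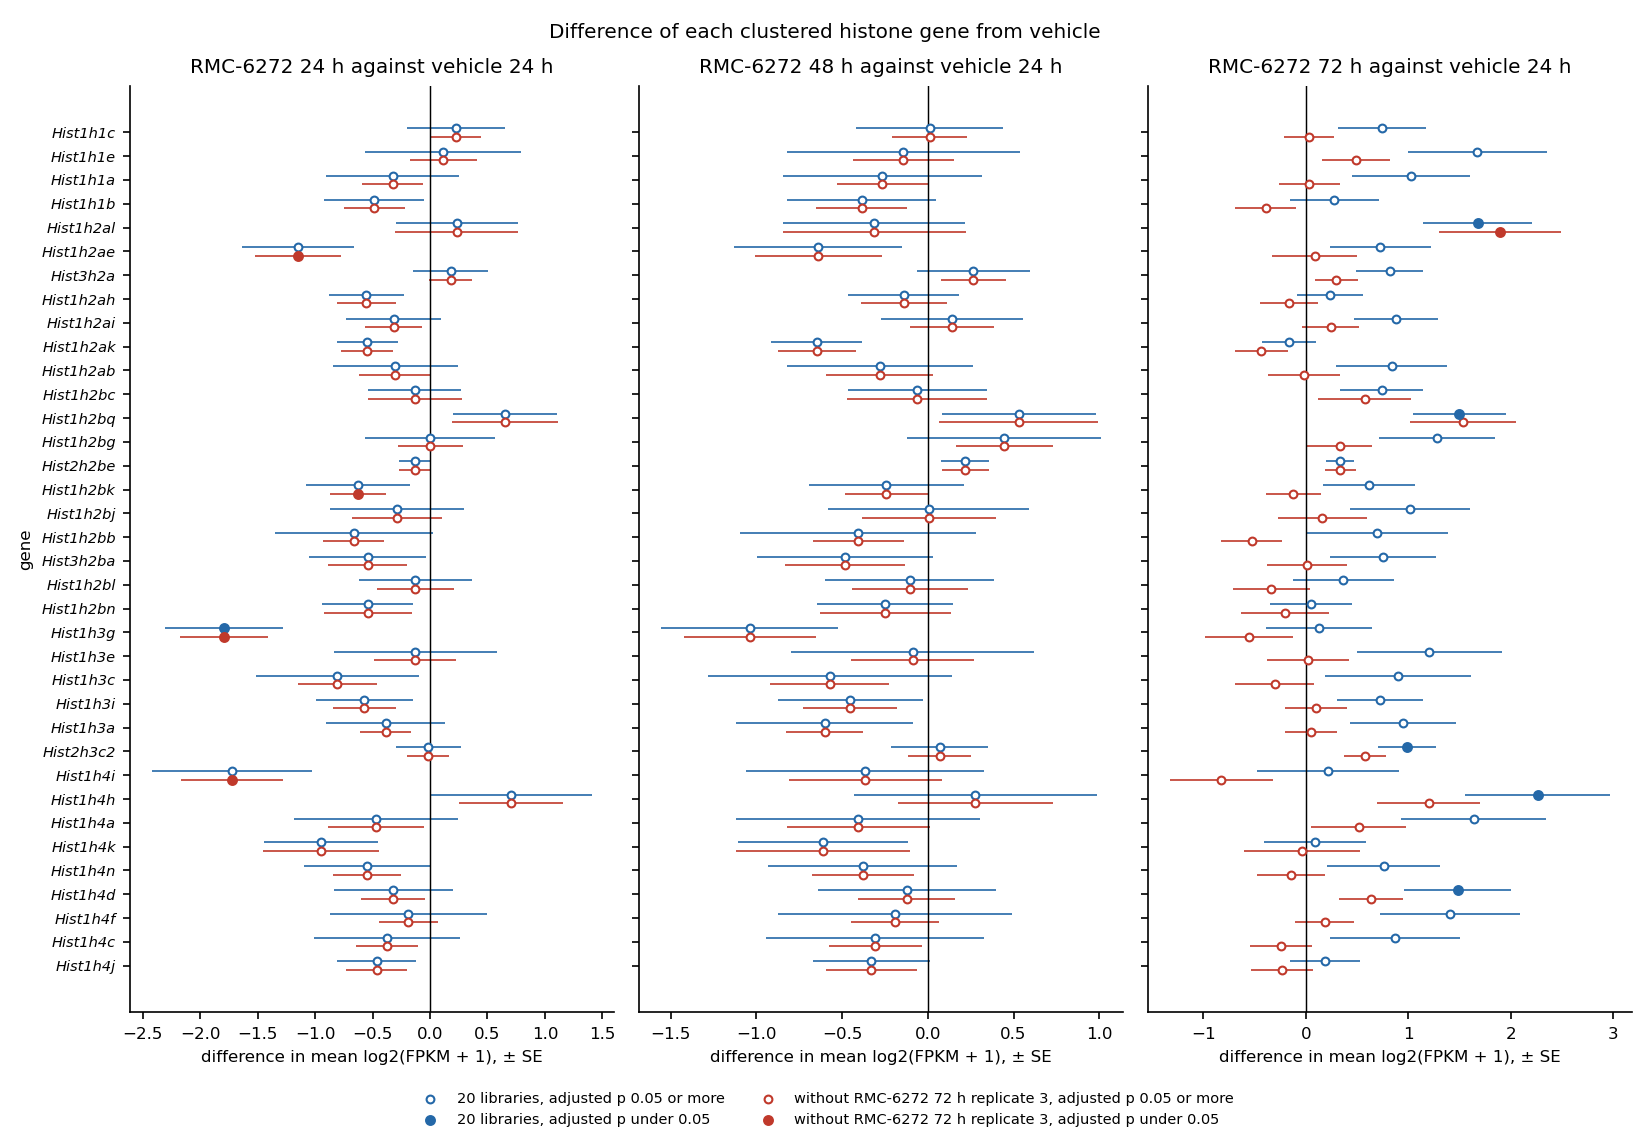
Difference of each of the 36 clustered histone genes from vehicle at 24, 48 and 72 h of RMC-6272, in mean log2(FPKM + 1) with its SE (bars), from the fit to 20 libraries (blue) and without RMC-6272 72 h replicate 3 (red); filled points have an adjusted p under 0.05. At 24 h the estimates are the same in both fits and the bars are shorter for most genes without the library, where Hist1h2ae, Hist1h2bk, Hist1h3g and Hist1h4i are filled, and at 72 h most blue points lie right of the red ones.

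Replicate 3 of RMC-6272 at 72 h held the highest level of the 20 libraries in 29 of the 36 genes (80.6%), against 18.8% of all genes tested. All genes tested passed the same filter, and of the 36, 32 would pass it without this library. Hist1h2ab, Hist1h2ai, Hist1h2bl and Hist1h4j passed only with it, so their high level there was partly set by the filter. The level in replicate 3 was a median of 12.0 times the median of the other 19 libraries over the 36 genes, at least 2 times the highest other library in 27 and at least 5 times in 14. The range ran from 1.34 times in Hist2h2be, which like Hist1h2bq (2.31 times) has a poly(A) signal and no stem-loop found, to 39.2 times in Hist1h1e, at 24.0 FPKM against a highest other level of 2.02. The class medians were 25.4 for H1, 5.77 for H2A, 11.6 for H2B, 15.1 for H3 and 20.1 for H4. The 7 genes not highest there were Hist1h2ak, Hist1h2al, Hist1h2bc, Hist1h2bn, Hist1h2bq, Hist1h4k and Hist2h2be.

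In that library genes without a poly(A) signal at their annotated end stood at a median of 14.4 times the other libraries (26 genes) and genes with one at 7.15 times (10 genes), with ranges of 2.02 to 39.2 and 1.34 to 29.5 that overlap nearly throughout. Hist1h1c, the H1 gene with a long annotated end, stood at 147 FPKM, 4.31 times the median of the others, and Hist1h4i at 108 FPKM, 6.91 times. The S-phase and G2/M genes were not high in this library: none of 49 and none of 36 was highest there, at medians of 0.616 and 0.541 times the other libraries. All 8 neutrophil and all 6 erythroid markers tested, 6 of 8 endothelial markers and 9 of 14 non-polyadenylated RNAs were highest there, with S100a8 at 842 FPKM, Elane at 26.2 and Hba-a1 at 28106, and the median ratio of the non-polyadenylated RNAs was 6.55. The part of blood cells, of depth and of RNA or library quality in the histone levels of this library was not tested.

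**Figure D4:**
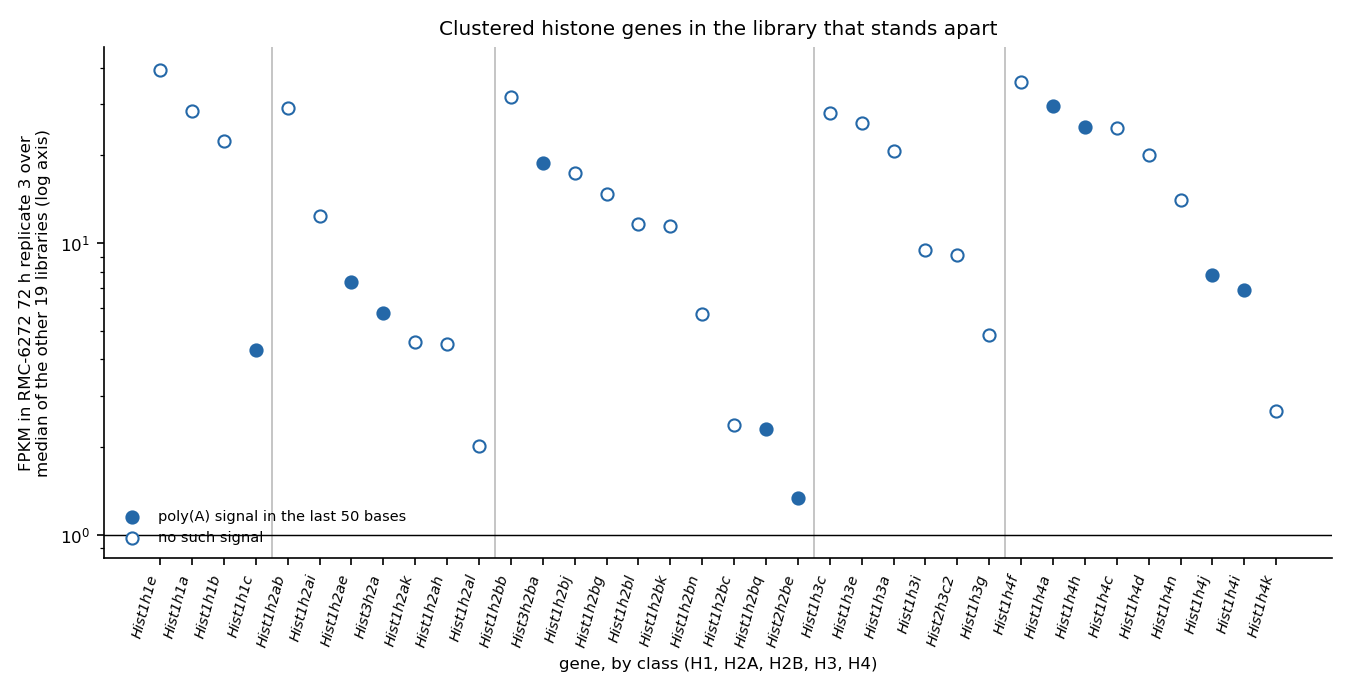
Level in RMC-6272 72 h replicate 3 divided by the median of the other 19 libraries (log axis) for each of the 36 clustered histone genes, ordered by class and then by ratio; filled points have a poly(A) signal in the last 50 bases of an annotated transcript. Every gene lies above 1, from Hist2h2be at 1.34 to Hist1h1e at 39.2, and filled and open points are mixed in every class but H3, which has no filled point.

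In the 24 h sorafenib libraries none of the 36 genes passed against vehicle (limma; 2 at an unadjusted p under 0.05, against 519 of all genes), and 0% of all genes did. The median difference was -0.17, with 23 of 36 below 0. Hist1h2bc, at 21.2 and 18.5 FPKM against 23.0, 59.5 and 50.3 in vehicle, had a difference of -1.01 (SE 0.45) with a 95% interval from -1.98 to -0.04, and did not pass after adjustment over all genes. Its 2 libraries lay under every vehicle library, as did those of 8 genes in all (17% of all genes did), among them Hist1h4i at 13.5 and 12.9 FPKM, whose lowest vehicle library was at 13.9. On the high side 2 genes lay above every vehicle library (13.5% of all genes). Hist1h2bq, at 3.35 and 2.42 FPKM against at most 1.62, had a difference of 1.08 (SE 0.50) with an interval from 0.0042 to 2.15, the other gene with an unadjusted p under 0.05, and did not pass either. Hist2h2be lay at 0.999 and 0.934 FPKM against at most 0.843 in vehicle. Hist1h3g, at 1.07 and 3.68 FPKM, and Hist1h2ae, at 3.03 and 3.87, overlapped vehicle.

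Over its 3 times sorafenib differed from vehicle in none of the 36 genes (limma; none at an unadjusted p under 0.05, 414 of all genes), with 0% of all genes called and a median of -0.07, and none lay wholly above or below vehicle (2.91% of all genes did, 1.29% above and 1.63% below). An F test over 4, 24 and 48 h found none either (0.00736% of all genes, none of the 36 at an unadjusted p under 0.05). Without RMC-6272 72 h replicate 3 in the fit none of the 36 passed in these 3 sorafenib tests either (limma; 3, 0 and 1 at an unadjusted p under 0.05). Hist1h1c lay at 26.9, 28.7 and 26.0 FPKM at 4 h, 35.9 and 36.1 at 24 h, and 46.9 and 28.6 at 48 h, overlapping vehicle at each time. Hist1h4i lay at 27.8, 28.6 and 24.4 FPKM at 4 h and at 15.6 and 36.2 at 48 h, Hist1h4h at 4.14, 3.48 and 2.73 at 4 h and at 1.92 and 2.25 at 48 h. Hist1h3g lay at 3.67, 3.25 and 3.37 FPKM at 4 h and at 2.27 and 2.63 at 48 h. None of the S-phase, G2/M, histone processing, chaperone or variant histone genes passed against vehicle in these comparisons, and their medians lay between -0.17 and 0.05.

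Replicate 2 of sorafenib at 4 h was the highest of the 19 libraries (without RMC-6272 72 h replicate 3) in 13 of the 36 genes, where 1.79% of all genes tested were highest in it. Of these, Hist1h2ab, Hist1h2ai and Hist1h2bl reached 1 FPKM only in it and in RMC-6272 72 h replicate 3. They passed the filter through those libraries alone. Hist1h1e was at 2.02 FPKM in this sorafenib library against 0.615 and 0.340 in the other 4 h libraries, Hist1h2bg at 2.92 against 0.886 and 0.530, and Hist1h3e at 3.40 against 0.910 and 0.784. The abundant Hist1h1c and Hist1h2bc did not stand out in it, at 28.7 and 34.9 FPKM. Its summed S-phase list was at 1308 FPKM, between 1303 and 1450 in the other 4 h libraries, and its neutrophil and erythroid sums of 5.29 and 103 FPKM lay far from those of RMC-6272 72 h replicate 3.

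RMC-6272 and sorafenib were set side by side at the times both were collected. At 24 h none of the 36 passed (limma; 3 at an unadjusted p under 0.05, against 4894 of all genes), where 18.7% of all genes were called (7.47% higher and 11.3% lower). Hist1h3g differed by -1.34 (adjusted p = 0.112), Hist1h2ae by -1.19 (adjusted p = 0.134) and Hist1h4i by -1.08 (adjusted p = 0.328), with a median of -0.19 over the 36. In 6 genes all RMC-6272 libraries lay below both sorafenib libraries (32.7% of all genes) and in 3 above (29%; 61.7% in either direction), the latter being Hist1h2bc, Hist1h2bg and Hist1h2bj. Without RMC-6272 72 h replicate 3 in the fit 2 passed, Hist1h3g (adjusted p = 0.0340) and Hist1h2ae (adjusted p = 0.0467), where 28% of all genes did. Sorafenib had 2 libraries at 24 h, and in Hist1h3g its replicate 1, at 1.07 FPKM, lay nearer the RMC-6272 libraries than its replicate 2, at 3.68 FPKM. At 48 h none of the 36 passed, none at an unadjusted p under 0.05 (limma), with 0.00736% of all genes called and a median of -0.11, and 7 had no overlap (39% of all genes), 6 of them lower. Leaving out RMC-6272 72 h replicate 3 again gave no call at 48 h (1 at an unadjusted p under 0.05). In the 24 h comparison H2afz (-1.99, adjusted p = 0.00354), Pcna (-1.40, adjusted p = 0.00622), Mki67 (-1.45, adjusted p = 0.00721) and Slbp (-0.89, adjusted p = 0.0132) were lower with RMC-6272.

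The plot of summed levels sets the clustered histone genes beside these lists. The 36 genes summed to 119, 148 and 87.7 FPKM at 24 h of RMC-6272, to 127, 118 and 123 at 48 h and to 146, 242 and 769 at 72 h, and to 122, 169 and 132 at 4 h of sorafenib. The S-phase list separated 24 h of RMC-6272 (436 to 614 FPKM) from vehicle (1216 to 1374) and lay between at 48 h (743, 990 and 1039), where the sum of the 36 histone genes did not order the groups. That sum came mostly from 4 genes, at 63.1% to 85.7% in the 19 libraries without RMC-6272 72 h replicate 3. Outside the genes of highest mean level the sum did separate 24 h of RMC-6272 from vehicle, as given above.

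**Figure D5:**
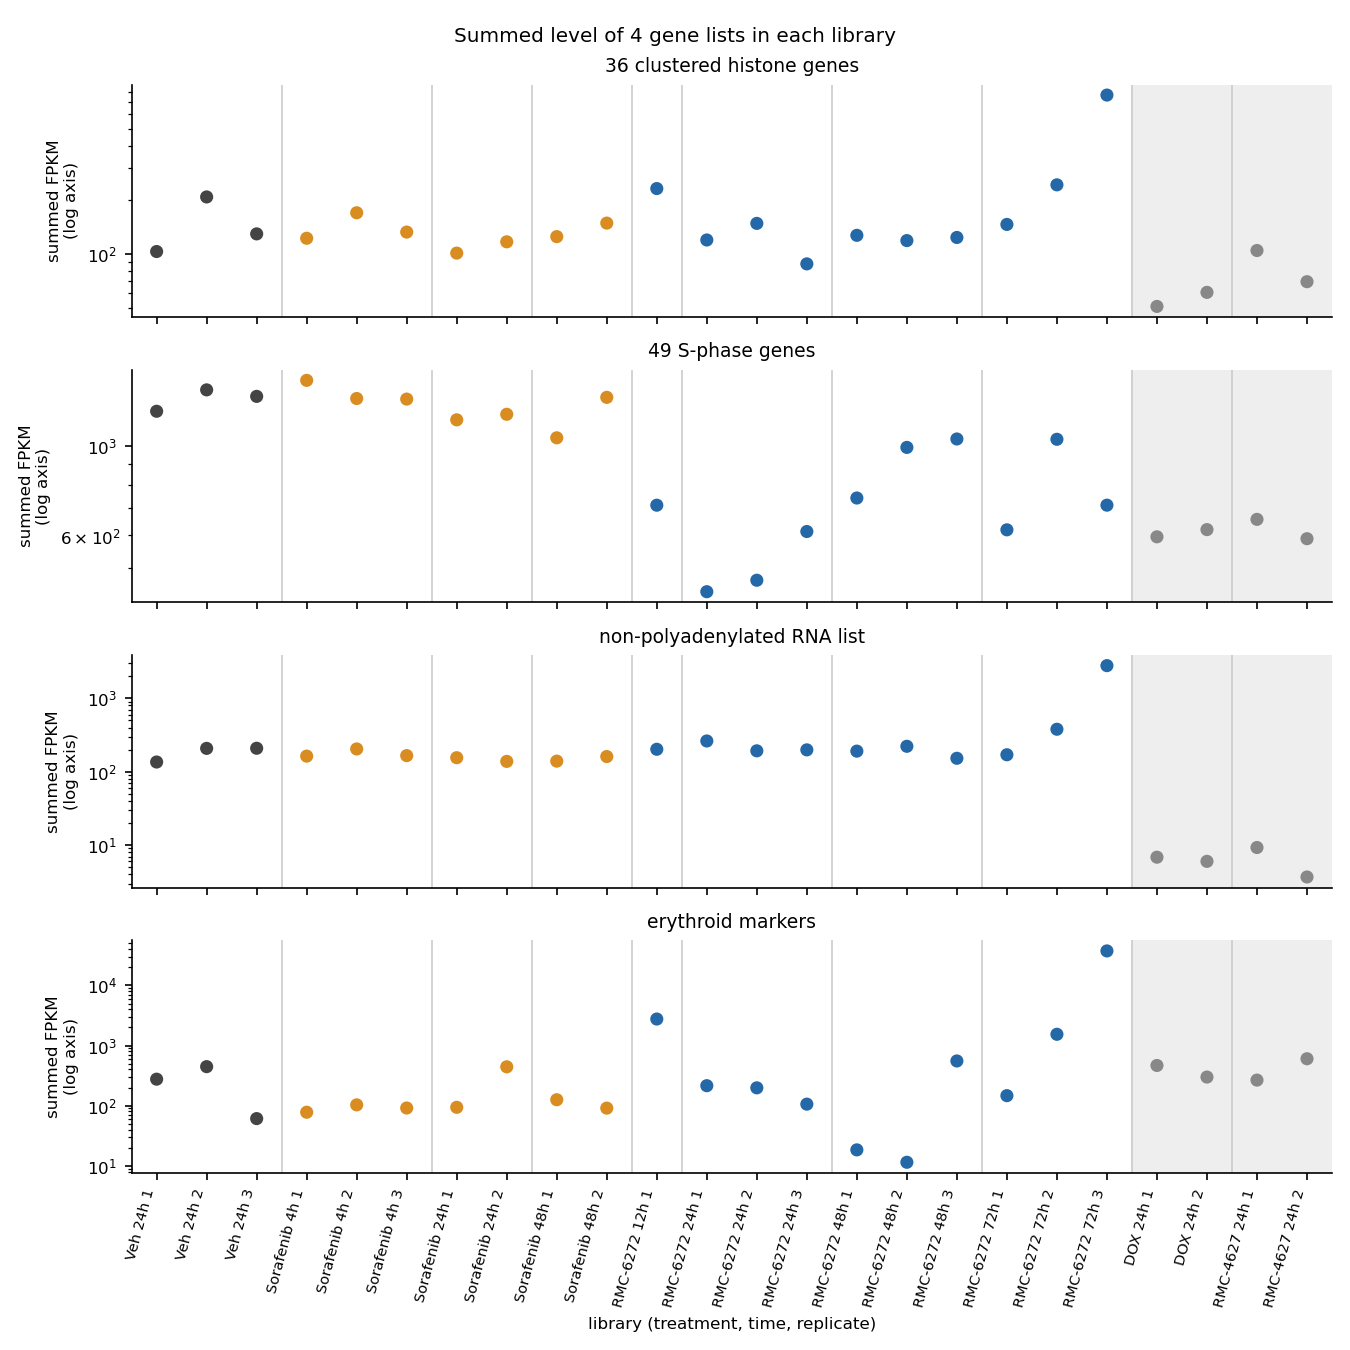
Summed FPKM (log axis) of the 36 clustered histone genes, 49 S-phase genes, the list of non-polyadenylated RNAs and the erythroid markers in each of 24 libraries, ordered by treatment, time and replicate. The S-phase sum is lowest in replicates 1 and 2 of RMC-6272 at 24 h (436 and 465), the other 3 sums are highest in RMC-6272 72 h replicate 3, and the non-polyadenylated RNAs are lowest in the shaded DOX and RMC-4627 libraries.

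The single RMC-6272 library at 12 h has no replicate and entered no test. Hist1h2al lay at 45.2 FPKM in it, 3.73 times the highest vehicle library, and Hist1h4h at 11.3 FPKM, 3.23 times. Hist1h2bc lay at 91.8 FPKM, above all vehicle libraries, Hist1h3g at 1.25, below them, and Hist1h1c at 45.3 and Hist1h4i at 15.7 near or within the vehicle range. The erythroid markers of this library summed to 2759 FPKM, the second highest of the 20, and its neutrophil markers to 73.6 FPKM.

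In the DOX and RMC-4627 libraries the levels of these genes cannot be set against the other 20, since their columns hold few non-polyadenylated RNAs. With MYC off, Hist1h1c lay at 14.5 and 22.4 FPKM and Hist1h2bc at 22.3 and 27.0, while Hist1h3g lay at 0.124 and 0.167, Hist1h4i at 1.85 and 2.28, Hist1h4h at 1.22 and 1.29 and Hist1h2al at 1.55 and 1.17. With RMC-4627, Hist1h1c lay at 40.1 and 30.5 FPKM, Hist1h2bc at 48.1 and 30.0, Hist1h3g at 0.0577 and 0.144, Hist1h4i at 4.68 and 2.08, and Hist1h2al at 0.599 and 0.426. Hist1h1c and Hist1h2bc thus had levels of 14.5 to 48.1 FPKM in these libraries, and most others did not: 30 of 36 lay under 1 FPKM in both DOX libraries and 29 in both RMC-4627 libraries, and 6 and 7 genes were listed at 0 in both. Of the 10 genes with a poly(A) signal 3 were at 1 FPKM or more in all 4 libraries (Hist1h1c, Hist1h4h and Hist1h4i), 2 were listed at 0 in at least 1 (Hist1h2ae and Hist3h2a) and none in all 4. Of the 26 without one, 1 was at 1 FPKM or more in all 4 (Hist1h2bc), 14 were listed at 0 in at least 1, and 3 in all 4 (Hist1h2ak, Hist1h2bg and Hist1h3i).

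The 34 entries under the filter comprised 15 that stayed under 1 FPKM in all 20 libraries and 19 that reached it in exactly 1. For 17 of the 19 that library was RMC-6272 72 h replicate 3, and for Hist1h2af and Hist1h2bm it was sorafenib 4 h replicate 2. Of the 36 genes above the filter, 32 would pass it without RMC-6272 72 h replicate 3. Just outside stood Hist1h2an and Hist1h2ad, with second highest levels of 0.985 and 0.958 FPKM, and just inside Hist1h1b and Hist1h2ak, at 1.13 and 1.15. Hist1h2aa, Hist2h2aa1, Hist2h2aa2, Hist2h2bb, Hist2h3b and Hist2h3c1 were listed at 0 in all 24 libraries, and since the median share of their 100-base windows found in other genes was 100%, the reads of most of them cannot be told apart from those of their copies. Hist1h2aa is the exception, with 10.3% of its windows shared. Hist4h4, the 1 entry of cluster 4, lay between 0.0299 and 0.651 FPKM in 19 libraries and at 4.598 FPKM in RMC-6272 72 h replicate 3.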

How the data were processed

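Tumour RNA (RNeasy Plus, NEBNext Ultra libraries, HiSeq 2500, per the labels' protocols) was deposited as FPKM by the authors, 1 column for each of 24 libraries. The submitters' processing notes name STAR 2.5, HTSeq 0.6.1 and mm9, with no role given. No other normalization of the deposited FPKM values is stated. Of 54532 entries, 27 with names turned into dates and 102 repeating the symbol of a more abundant entry were left out. Symbols, in capitals in the table, are written in mouse form.

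Genes with FPKM of at least 1 in 2 of the 20 vehicle, RMC-6272 and sorafenib libraries (13594) were fitted together on log2(FPKM + 1) with limma 3.58.1 (lmFit, eBayes with trend, R 4.3.3), 1 mean per treatment and time. Two-sided p-values were adjusted by Benjamini-Hochberg over all genes and called under 0.05. The code was tested on simulated data first. Depth was recovered from the steps of low FPKM values, and limits the precision of genes under 1 FPKM. Stem-loops, poly(A) signals, exon overlaps and shared windows came from GENCODE M21, promoters from RefSeq GRCm38.p6. Alternatives were pseudocounts of 0.1 and 5, other filters and scalings, fewer or more libraries, blocks and single libraries left out; leaving RMC-6272 72 h replicate 3 out of every fit was chosen after seeing the data. The genes and lists were chosen with earlier results of these data known. Named genes are the up to 3 of smallest p among those called in each comparison, the 2 of highest mean per class, 5 set members (Hist1h1c, Hist1h2bc, Hist2h2be, Hist3h2a and Hist4h4), up to 3 per companion list and 7 tracked genes; others were named after their values were seen.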

Additional observations from a re-analysis of the deposited data

Results flagged for a closer look

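The single RMC-6272 library at 12 h lies outside every comparison, and 2 of the 36 genes in it stood at over 3 times the highest vehicle library. Hist1h2al was at 45.2 FPKM there, against 12.1 FPKM in the highest of 3 vehicle libraries. Hist1h4h was at 11.3 FPKM, against 3.49 FPKM. Neither has a replicate at 12 h, and no test was run.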

How the results depend on the processing

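At 24 h of RMC-6272 against vehicle, where 1 gene was called, the count was 2 with a pseudocount of 0.1, 0 with a pseudocount of 5, 0 among the 7 genes left by a filter of 5 FPKM, 4 with the compared groups alone, 3 with a replicate block and 4 without RMC-6272 72 h replicate 3. It was 0 to 2 when 1 library of the pair was left out (0 without vehicle replicate 2). The adjusted p of Hist1h3g ranged from 0.00276 to 0.0591 over these settings. At 72 h, where 5 were called, it was 3 with a pseudocount of 0.1, 0 with no filter, 2 with a filter of 5 FPKM, 0 with the compared groups alone, 3 with the description code as a random block, and 1 to 13 with 1 library left out. Single calls were left without either of the vehicle replicates 1 and 3, or when replicate 3 of the treated group was dropped, 2 without vehicle replicate 2, 13 without RMC-6272 replicate 1 and 9 without its replicate 2. Against sorafenib at 24 h the count of 0 became 1 with a pseudocount of 0.1, 1 after quantile normalization, 2 with the compared groups alone, 1 with a replicate block and 2 without RMC-6272 72 h replicate 3. For 72 h against 48 h it stayed 0 except for 14 without RMC-6272 72 h replicate 1, the range over left-out libraries being 0 to 14. These counts show only how the calls moved with the settings. They are not set beside the share of all genes called under each setting. The differences of the genes called against vehicle at 24 and 72 h kept their sign under the alternatives run, but their adjusted p reached 0.141 to 0.255 for the 5 called at 72 h, and the small medians over the 36 genes in the sorafenib comparisons changed sign: from -0.19 to 0.11 for RMC-6272 against sorafenib at 24 h with the description code as a random block (0.08 without sorafenib 24 h replicate 2), from -0.11 to 0.0045 at 48 h with that block, from -0.17 to 0.12 for sorafenib at 24 h without its replicate 1 (0.07 with a filter of 5 FPKM), and from -0.07 to 0.12 over all sorafenib times without vehicle replicate 2 (0.0072 with the replicate block). The replicate numbers are not known to pair the libraries. Over 52 same-numbered pairs the correlation of deviations from group means ran from -0.50 to 0.49 (median 0.02), with 19 over 0.1. Deviations within such small groups must sum to 0 and differently numbered pairs were not compared, so this check cannot decide whether libraries were paired. Low depth limits the other genes, most of which lay under 1 FPKM.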
